A study of Homo sapiens with 6 samples.

Results

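The genes described here are the carriers of sugars and monocarboxylates of the solute carrier families SLC2, SLC5 and SLC16. They were chosen by symbol, as every gene of the table named SLC2A, SLC5A or SLC16A with a number, apart from the myo-inositol carrier SLC5A3. The rule found 37 of 35035 genes: 13 of SLC2, 10 of SLC5 and 14 of SLC16. Of these, 26 had enough reads to be tested, and 11 did not. All RNA was from HK-2, a line of immortalised human proximal tubular epithelium. In 3 libraries, called the vector libraries below, the cells carried empty-vector plasmids and had the genotype WT. In the other 3, of the genotype circAASS-overexpressed, they carried plasmids that overexpress circAASS, whose name points to a circular transcript of AASS. Cells of both groups had 24 h in 1% oxygen and then 12 h of reoxygenation; the series' design text instead places the profiling 24 h after treatment. No library of cells kept in normal oxygen, or of untransfected cells, was analysed here, so the values describe stressed, transfected cells only. Values are RPKM, reads scaled for gene length and library size, which allow levels of different genes to be compared.

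SLC2 proteins, known as GLUTs, let sugars cross a membrane down their gradient. SLC5 proteins draw on the sodium gradient to move sugars, vitamins and other small solutes against theirs, and in the kidney SLC5A2 (SGLT2) takes back most of the filtered glucose in the early proximal tubule. Several SLC16 proteins, known as MCTs, move lactate, pyruvate and ketone bodies together with a proton, while others carry aromatic amino acids or creatine. A tubule cell that lives on glycolysis needs a route in for glucose and a route out for lactate, and a cell of the intact proximal tubule mainly returns glucose to the blood and takes lactate up.

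The libraries held 45148425 to 58179563 reads, mates of a pair counted separately. The gene AASS stood at 1.10 to 1.38 RPKM in the vector libraries and at 0.827 to 0.977 in the circAASS libraries; its linear RNA does not check the labels, and circAASS itself has no value here. Of 13 listed markers of the proximal tubule found in the table, 8 stayed under 0.1 RPKM in all 6 libraries, LRP2, CUBN, SLC34A1, AQP1, ANPEP and FBP1 among them. The rest of that list, not named here, exceeded 0.1 RPKM in at least 1 library. The summed level of the list was 10.0 to 10.9 RPKM in the vector libraries and 8.12 to 8.52 in the circAASS libraries. The 7 listed tubular epithelial markers were KRT8, KRT18, KRT19, CDH1, EPCAM, PAX8 and PAX2, of which 1 stayed under 0.1 RPKM in all 6 libraries. Others such as KRT8, KRT18, EPCAM and PAX8 were high, with sums of the list of 314.0 to 330.2 and 361.3 to 402.7 RPKM. Markers of endothelium and of the distal nephron all stayed under 0.1 RPKM. Of 6 fibroblast markers 4 did, with LUM and COL1A1 above it and sums of 3.69 to 4.46 RPKM in the vector libraries and 4.17 to 4.49 in the circAASS libraries. Of 5 leukocyte markers 3 did, PTPRC among them, with CD14 and LST1 above it and sums of 0.458 to 0.677 and 0.495 to 0.723 RPKM. RN7SK, an RNA without a poly(A) tail and thus a sign of how libraries were selected, went from 34.1 to 44.7 RPKM in the vector libraries to 55.6, 135 and 190 in the circAASS libraries, and its part in the results below was not tested. The labels name no separate cultures, so each p-value rests on library-to-library spread, which may be technical. In bulk RNA, fewer cells that express a gene and less RNA per cell cannot be told apart.

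The levels of the 37 carriers ranged from SLC16A1 at over 30 RPKM to genes with no read in most libraries. SLC16A1 was the sole member at 10 RPKM or more on average over all 6 libraries. A further 9 lay between 1 and 10 RPKM: SLC2A1, SLC16A3, SLC2A11, SLC2A6, SLC5A2, SLC2A3, SLC5A6, SLC16A12 and SLC16A7, in falling order. Another 14 lay between 0.1 and 1 RPKM, and 13 lay under 0.1 RPKM. SLC16A1 and SLC2A1 did not overlap with the next gene in either group. SLC16A3 stood above SLC2A11 without overlap in both groups. In the circAASS libraries, however, the range of SLC16A3 lay within that of SLC2A6, whose mean was higher (3.51 against 3.30 RPKM). The order below SLC2A1 thus differed between the groups. In the vector libraries SLC5A2 also stood above SLC2A6 and SLC2A3, and in the circAASS libraries SLC5A2 stood below both. SLC5A6 and SLC16A12 overlapped in both groups. SLC16A12 and SLC16A7 overlapped in the circAASS libraries.

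**Figure D1:**
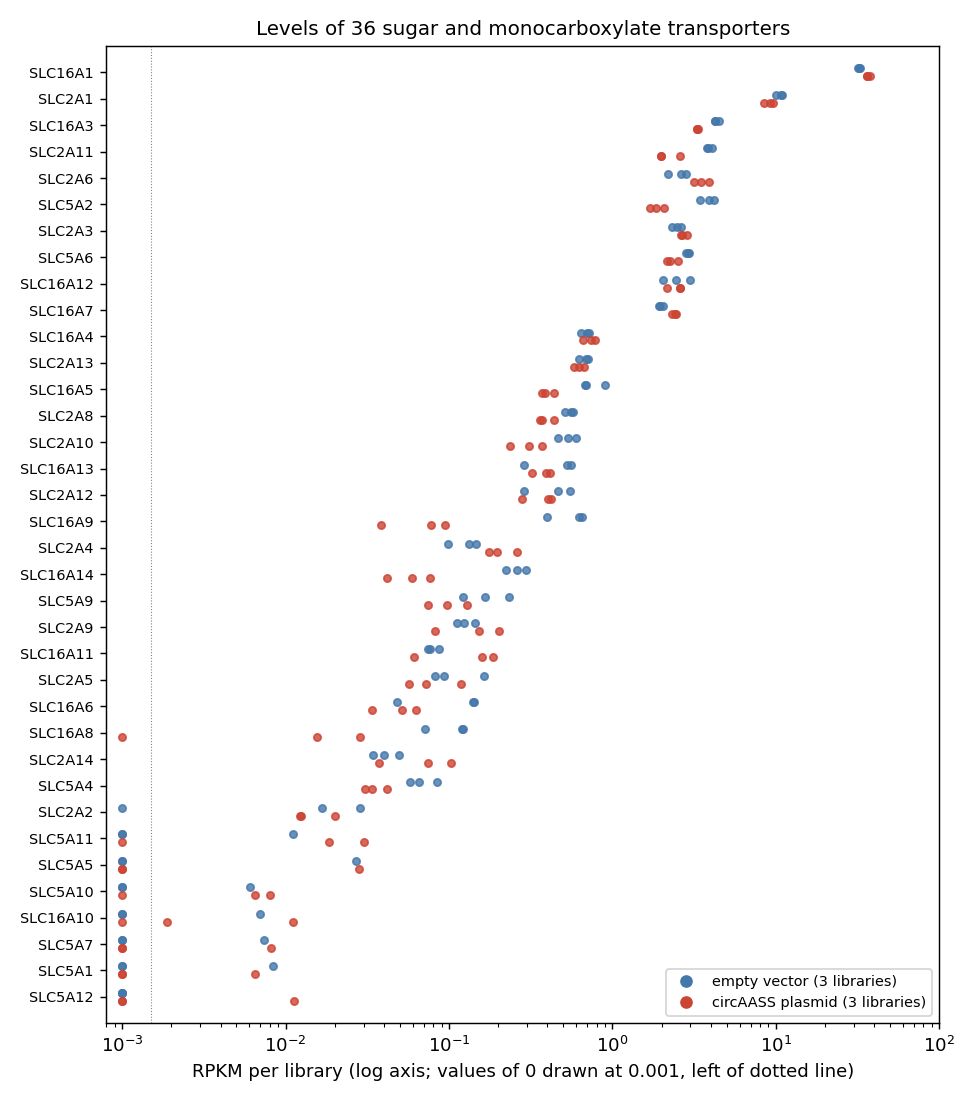
RPKM of 36 of the carriers in each of the 6 libraries on a log axis, sorted by the mean over all libraries, with values of 0 drawn at 0.001. SLC16A1 stands alone above 30 RPKM, and the red points of SLC16A9, SLC16A14 and SLC5A2 (circAASS plasmid) lie apart to the left of the blue ones (empty vector).

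The question was which carriers changed in level when circAASS rather than an empty plasmid was introduced. Of the 26 tested carriers 3 rose and 7 fell, and 16 did not pass (limma on log2(RPKM + 0.1), Benjamini-Hochberg adjusted p under 0.05 over all 19350 tested genes). That is 38.5% of the carriers, beside 32.3% of all tested genes called in either direction; 16% of all tested genes were higher and 16.3% lower. The median log2 fold change was -0.14 for the carriers and -0.01 for all tested genes. In deposited RPKM, before the scaling used in the test, the groups did not overlap for 15 carriers (57.7%), beside 47.5% of all tested genes. The carriers that rose were the lactate carriers SLC16A1 and SLC16A7 and the intracellular glucose carrier SLC2A6. Those that fell were SLC16A9, SLC16A14, SLC5A2, SLC2A11, SLC16A5, SLC2A10 and the lactate exporter SLC16A3. By family, 2 of 11 tested SLC16 genes rose and 4 fell, 1 of 12 SLC2 genes rose and 2 fell, and of 3 SLC5 genes none rose and 1 fell.

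**Figure D2:**
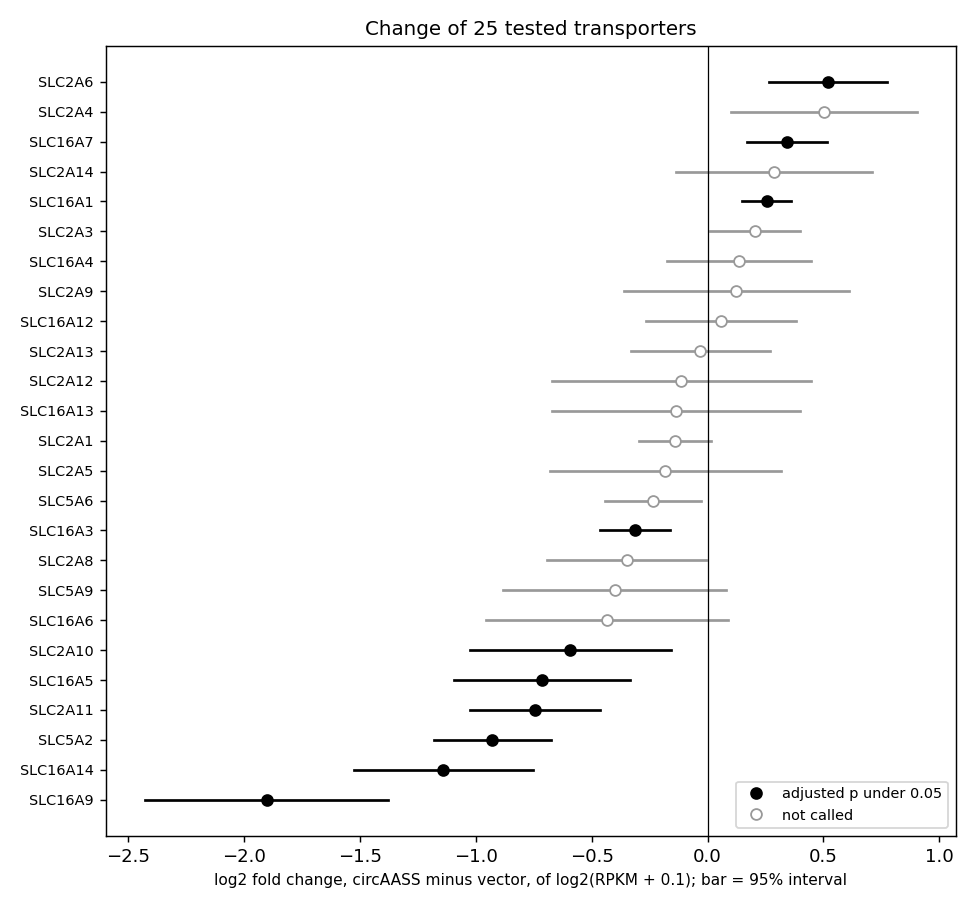
Log2 fold change of 25 of the tested carriers, circAASS plasmid minus empty vector, with its 95% interval; filled black points passed the test and open grey points did not. SLC16A9 lies farthest to the left at -1.90, and the 3 filled points to the right of 0 are SLC2A6, SLC16A7 and SLC16A1.

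The stretches just upstream of a RefSeq start are printed for 6 carriers that changed. They set the strongest falls beside a rise and beside SLC16A3, a gene known as a target of the hypoxia-inducible factors (HIF). They are the 250 bases before the most upstream start in RefSeq's promoter table (GRCh38.p14), which holds 28 of the 37 carriers and 8 of the 10 that changed. They lie at chr10:59710080-59710329 (minus strand), chr2:230068925-230069174 (minus), chr16:31482873-31483122 (plus), chr22:23856684-23856933 (plus), chr9:133479100-133479349 (minus) and chr17:82228185-82228434 (plus). Capitals mark the HIF core motifs ACGTG and GCGTG on either strand, and ACGTG also lies within the palindrome CACGTG.
SLC16A9: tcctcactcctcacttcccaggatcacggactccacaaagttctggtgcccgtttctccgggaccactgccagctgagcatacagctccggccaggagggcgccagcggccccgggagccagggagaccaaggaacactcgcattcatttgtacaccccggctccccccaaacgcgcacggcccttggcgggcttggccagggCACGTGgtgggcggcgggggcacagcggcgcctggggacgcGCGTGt
SLC16A14: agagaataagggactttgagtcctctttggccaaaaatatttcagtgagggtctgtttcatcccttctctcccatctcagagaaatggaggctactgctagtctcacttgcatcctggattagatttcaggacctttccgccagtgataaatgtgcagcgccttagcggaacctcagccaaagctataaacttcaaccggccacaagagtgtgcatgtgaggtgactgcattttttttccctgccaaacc
SLC5A2: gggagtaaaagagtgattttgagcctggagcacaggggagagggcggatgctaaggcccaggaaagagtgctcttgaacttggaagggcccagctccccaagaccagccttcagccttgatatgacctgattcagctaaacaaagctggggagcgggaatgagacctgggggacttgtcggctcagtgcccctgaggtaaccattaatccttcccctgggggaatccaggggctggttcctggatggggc
SLC2A11: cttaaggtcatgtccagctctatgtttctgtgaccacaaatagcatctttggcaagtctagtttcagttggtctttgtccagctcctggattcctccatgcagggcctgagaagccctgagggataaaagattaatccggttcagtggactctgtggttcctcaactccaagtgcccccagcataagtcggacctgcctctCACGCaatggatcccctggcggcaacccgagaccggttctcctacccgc
SLC2A6: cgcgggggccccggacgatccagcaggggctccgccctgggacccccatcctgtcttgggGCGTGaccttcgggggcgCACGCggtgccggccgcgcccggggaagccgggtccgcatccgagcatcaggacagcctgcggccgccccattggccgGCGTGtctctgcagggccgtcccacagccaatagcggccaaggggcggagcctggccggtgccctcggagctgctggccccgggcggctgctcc
SLC16A3: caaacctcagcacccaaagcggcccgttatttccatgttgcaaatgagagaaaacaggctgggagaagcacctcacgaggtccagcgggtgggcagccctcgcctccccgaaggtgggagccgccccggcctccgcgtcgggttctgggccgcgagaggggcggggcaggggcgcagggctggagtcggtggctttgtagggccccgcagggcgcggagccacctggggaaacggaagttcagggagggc

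The window of SLC16A9, which fell, held 3 matches, of which 2 overlap in the palindrome CACGTG. That of SLC2A6, which rose, also held 3, and that of SLC2A11, which fell, held 1. No match stood in the windows of SLC16A14, SLC5A2 and SLC16A3, which fell. RefSeq's table holds 5 windows for SLC16A3, 3 for SLC2A11 and 2 for SLC16A9. Only the most upstream of each is described here, so matches near their other starts are not covered. Matches thus occurred in windows of carriers that rose and of carriers that fell. Among the 28 carriers 13 had a match, beside 43.2% of all 35116 windows of the same length in the table. The E-box CACGTG stood in 3 of the 28 and in 6.34% of all windows. The window of SLC16A14 was the poorest in G and C of the 6 printed, with 46.8%, and held the letters TATAAA; that of SLC2A6 was the richest, with 76.8%. A match is a description of letters and does not show that a factor binds.

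Among the lactate and pyruvate carriers SLC16A1 and SLC16A7 rose and the exporter SLC16A3 fell. SLC16A1 (MCT1, which carries lactate in either direction) was the most abundant of all the carriers. It stood at 31.8, 32.9 and 32.4 RPKM in the vector libraries and at 36.0, 37.7 and 36.4 in the circAASS libraries, with no overlap. Its means were 32.3 ± 0.540 and 36.7 ± 0.896 RPKM (SD, n = 3 each), a rise of 13.6% in deposited RPKM. After the scaling used in the test the log2 fold change was 0.26 (SE 0.05, limma adjusted p = 0.00543), which is 1.19-fold. The gene lies on chromosome 1 from 112911847 to 112957013 (GRCh38, GENCODE 29).

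SLC16A7 (MCT2, a high-affinity carrier of lactate and pyruvate) stood at 1.94, 1.94 and 2.03 RPKM in the vector libraries and at 2.43, 2.33 and 2.45 in the circAASS libraries. All libraries in the circAASS libraries lay above all in the vector libraries, and the log2 fold change was 0.34 (SE 0.07, limma adjusted p = 0.0120; chromosome 12, 59596067 to 59789855). SLC16A3 (MCT4, the exporter of lactate from glycolytic cells) stood at 4.27, 4.50 and 4.27 RPKM in the vector libraries. With the circAASS plasmid it stood at 3.34, 3.29 and 3.27, a fall of all 3 libraries below the vector range. Its means were 4.35 ± 0.132 and 3.30 ± 0.0380 RPKM, and the log2 fold change was -0.31 (SE 0.06, limma adjusted p = 0.00993; chromosome 17, 82228397 to 82261129). Other genes, chiefly CSNK1D on the other strand, cover 6.04% of its exon bases. The ratio of SLC16A1 to SLC16A3 RPKM was 7.45, 7.30 and 7.58 in the vector libraries and 10.8, 11.5 and 11.1 in the circAASS libraries, so the balance of the transcripts of these carriers differed without overlap. SLC16A8 (MCT3, known from the retinal pigment epithelium) was below the reads needed for a test, with 12, 8 and 14 reads against 3, 2 and 0.

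The deepest falls were in the less studied SLC16 genes. SLC16A9 (MCT9, a gene linked to carnitine and urate levels) stood at 0.400, 0.655 and 0.628 RPKM in the vector libraries, from 80, 148 and 146 reads. With the circAASS plasmid it stood at 0.0941, 0.0776 and 0.0381 RPKM, from 20, 20 and 8 reads, and no library came near the vector range. Its mean fell by 87.5%; the log2 fold change of -1.90 (SE 0.23, limma adjusted p = 0.00120) understates this, since 0.1 RPKM is added before the logarithm. With 1 RPKM added it was -0.53. The gene lies on chromosome 10 from 59650761 to 59736002.

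SLC16A14 (MCT14, a carrier of little-known substrate) stood at 0.296, 0.262 and 0.223 RPKM in the vector libraries and at 0.0590, 0.0417 and 0.0768 in the circAASS libraries, from 58 to 66 reads against 12 to 18. The groups lay far apart, with a log2 fold change of -1.14 (SE 0.17, limma adjusted p = 0.00260; chromosome 2, 230034974 to 230068999), which was -0.24 with 1 RPKM added. SLC16A5 (MCT6, a carrier of drugs such as bumetanide) stood at 0.681, 0.901 and 0.685 RPKM in the vector libraries and at 0.439, 0.384 and 0.369 in the circAASS libraries. The groups did not overlap, and the log2 fold change was -0.71 (SE 0.16, limma adjusted p = 0.0145; chromosome 17, 75087727 to 75106162). Without vector library 2, which held the highest value, the adjusted p was 0.0522.

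The other 5 tested SLC16 genes did not pass. SLC16A12, a creatine carrier, was the most abundant of them, with means of 2.49 ± 0.472 and 2.45 ± 0.248 RPKM and a log2 fold change of 0.06 (95% interval -0.26 to 0.38). SLC16A4 stood at 0.687 and 0.728 RPKM on average and SLC16A13 at 0.457 and 0.375. SLC16A6, a ketone body carrier, stood at 0.142, 0.0483 and 0.141 RPKM against 0.0513, 0.0339 and 0.0624; its low value in vector library 2 lies within the circAASS range, and without that library the adjusted p was 0.0424. Of its windows of 50 bases, 8.47% also occur in other genes, chiefly the pseudogene SLC16A6P1, so that its reads are uncertain. SLC16A10, an aromatic amino acid carrier, had 0 to 6 reads a library and SLC16A11 had 6 to 19, too few for a test.

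**Figure D3:**
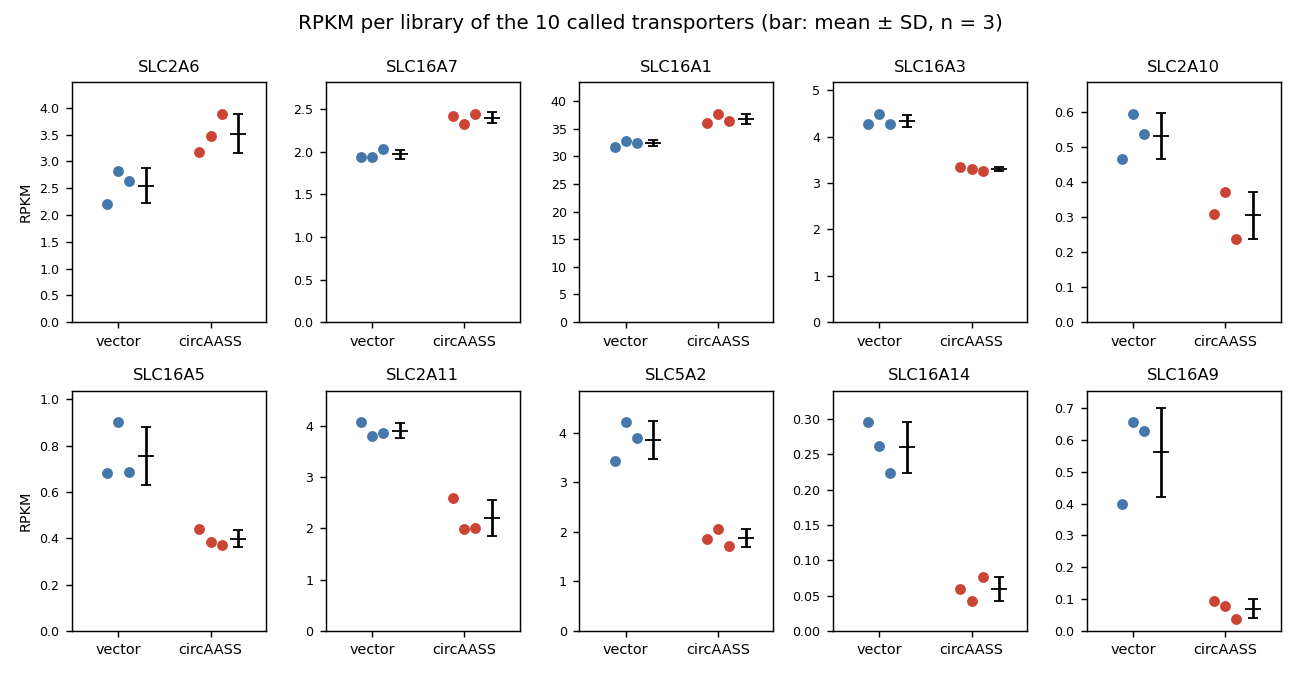
RPKM in each library of the 10 carriers that passed the test, with mean ± SD (n = 3) beside the points; each panel has its own axis from 0. In all 10 panels the points of the groups do not overlap, with SLC16A9 at 0.0381 to 0.0941 RPKM against 0.400 to 0.655.

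Of the sodium-coupled carriers SLC5A2 fell by about as much as the gene that overlaps it on the other strand. SLC5A2 (SGLT2) stood at 3.44, 4.21 and 3.90 RPKM in the vector libraries and at 1.85, 2.06 and 1.71 in the circAASS libraries. The highest library in the circAASS libraries lay well below the lowest in the vector libraries, and the means were 3.85 ± 0.389 and 1.87 ± 0.177 RPKM. The log2 fold change was -0.93 (SE 0.11, limma adjusted p = 0.00114; chromosome 16, 31483002 to 31490860). Exons of C16orf58 and of a further gene cover 40.7% of the exon bases of SLC5A2 from the opposite strand. C16orf58 stood at 8.39, 9.20 and 8.56 RPKM in the vector libraries and at 4.0, 4.91 and 4.20 in the circAASS libraries, with a log2 fold change of -0.91 (SE 0.09, limma adjusted p = 0.000608). The ratio of SLC5A2 to C16orf58 RPKM stayed between 0.407 and 0.462 in the 6 libraries, and its groups overlapped. The sources used here do not say whether strand was used in counting, so the reads of these genes cannot be told apart and the level and the fall of SLC5A2 are uncertain.

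PDZK1IP1 (MAP17), the small membrane protein that SGLT2 needs in order to transport, fell too. It stood at 103, 116 and 123 RPKM in the vector libraries and at 55.9, 63.2 and 61.3 in the circAASS libraries (log2 fold change -0.85, SE 0.07, limma adjusted p = 0.000428). PDZK1, a scaffold of brush-border carriers, went from 36.6, 37.2 and 36.3 RPKM to 20.9, 23.4 and 22.9 (log2 fold change -0.64, SE 0.05, adjusted p = 0.000342). Neither gene overlaps another in its exons.

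**Figure D4:**
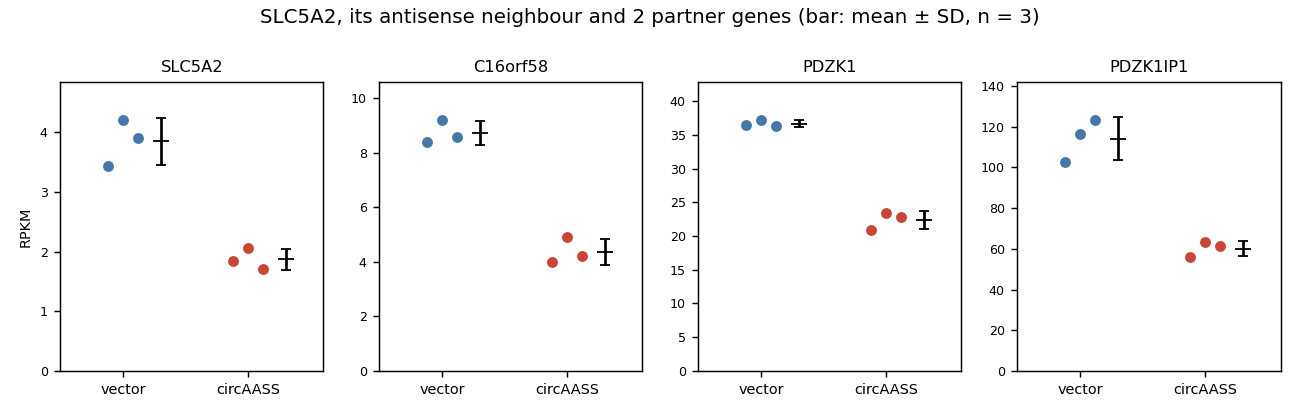
RPKM in each library of SLC5A2, of C16orf58 on its opposite strand and of the partner genes PDZK1 and PDZK1IP1, with mean ± SD (n = 3); each panel has its own axis from 0. All 4 genes are lower in the circAASS libraries without overlap, SLC5A2 at 1.71 to 2.06 RPKM against 3.44 to 4.21.

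SLC5A6, which brings biotin and pantothenate into the cell, stood at 2.92, 2.80 and 2.91 RPKM in the vector libraries and at 2.54, 2.17 and 2.24 in the circAASS libraries. The groups did not overlap, but the log2 fold change of -0.23 (95% interval -0.44 to -0.03) did not pass (limma adjusted p = 0.0809). It passed with library size alone (adjusted p = 0.0313), with limma-voom (0.0321) and without circAASS library 1 (0.0318). SLC5A9 (SGLT4, a mannose carrier) had means of 0.174 ± 0.0562 and 0.10 ± 0.0274 RPKM, with overlap (log2 fold change -0.40, adjusted p = 0.176), and 13.5% of its exon bases lie in another gene on the other strand. The other 7 SLC5 genes had too few reads for a test. SLC5A1 (SGLT1, the high-affinity glucose carrier of the late proximal tubule) had no more than 2 reads in any library. If reads were independent, a count of 0 would allow up to 3 reads at 95% confidence, or 0.00971 to 0.0125 RPKM here. Mates of a pair were counted separately and 78.6% of low read numbers were even, so this limit is too low. SLC5A12, a sodium-coupled lactate carrier of the proximal tubule, had 4 reads in circAASS library 3 and none elsewhere. The glucose sensor SLC5A4, the iodide carrier SLC5A5, the choline carrier SLC5A7, the sugar carrier SLC5A10 and the myo-inositol carrier SLC5A11 had at most 9 reads in any library. Summed over the 10 SLC5 genes, the level went from 6.60, 7.33 and 7.04 RPKM to 4.54, 4.47 and 4.09, most of which was SLC5A2 and SLC5A6. The limit given for a count of 0 covers counting error only.

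None of the 4 tested class 1 GLUTs, the classical glucose carriers, passed the test. SLC2A1 (GLUT1, the basal glucose carrier of most cultured cells) stood at 10.9, 10.7 and 10.0 RPKM in the vector libraries and at 9.16, 8.44 and 9.67 in the circAASS libraries. In deposited RPKM each library with the circAASS plasmid lay below each in the vector libraries. Division by the scaling factors used in the test (1.036 for vector library 3, 0.996 for circAASS library 3) ends this separation. The log2 fold change of -0.14 (SE 0.07, 95% interval -0.30 to 0.02) missed the threshold (limma adjusted p = 0.15). Scaled by library size alone it was -0.21 and passed (adjusted p = 0.0492). SLC2A3 (GLUT3, a high-affinity carrier known from neurons) stood at 2.49, 2.32 and 2.63 RPKM against 2.88, 2.63 and 2.68 (log2 fold change 0.21, adjusted p = 0.0977). Of its windows of 50 bases, 16% also occur in transcripts of other genes, chiefly its near copy SLC2A14, so the split of reads between them is uncertain. SLC2A14 itself stood at 0.0410 and 0.0712 RPKM on average, with overlap. SLC2A4 (GLUT4, the insulin-responsive carrier of muscle and fat) stood at 0.0985, 0.145 and 0.132 RPKM against 0.175, 0.195 and 0.261; the groups did not overlap, and the adjusted p was 0.0594, or 0.0311 without trend and robust prior. SLC2A2 (GLUT2, through which glucose leaves the proximal tubule cell) had at most 5 reads in any library and was not tested.

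The class 2 and 3 GLUTs, many of which work inside the cell or on other substrates, moved both ways. SLC2A11 (GLUT11, which carries glucose and fructose) stood at 4.06, 3.80 and 3.85 RPKM in the vector libraries and at 2.60, 1.98 and 2.00 in the circAASS libraries. The groups lay apart, with means of 3.90 ± 0.140 and 2.19 ± 0.350 RPKM and a log2 fold change of -0.74 (SE 0.12, limma adjusted p = 0.00390; chromosome 22, 23856703 to 23886309). Other genes cover 18.4% of its exon bases, mostly from the other strand; of these AP000350.5 also fell, from 0.232 to 0.0569 RPKM on average (adjusted p = 0.00372), and its reads and those of SLC2A11 are uncertain to that extent.

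SLC2A6 (GLUT6, a glucose carrier of lysosomal membranes) was the SLC2 gene that rose. It stood at 2.20, 2.82 and 2.63 RPKM in the vector libraries and at 3.17, 3.48 and 3.89 in the circAASS libraries, with no overlap. The means were 2.55 ± 0.321 and 3.51 ± 0.363 RPKM, and the log2 fold change was 0.52 (SE 0.11, limma adjusted p = 0.0105; chromosome 9, 133471095 to 133479137). SLC2A10 (GLUT10, mutated in arterial tortuosity syndrome) stood at 0.465, 0.596 and 0.537 RPKM against 0.309, 0.371 and 0.236, also without overlap. Its log2 fold change of -0.59 (SE 0.19, limma adjusted p = 0.0453; chromosome 20, 46709487 to 46736347) passed narrowly. Leaving out any 1 library other than circAASS library 2 ended the call (adjusted p up to 0.132), and with the repeat number as a replicate block (adjusted p = 0.0621).

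The remaining members of these classes did not pass. SLC2A8 (GLUT8, an intracellular carrier) stood at 0.575, 0.514 and 0.558 RPKM against 0.372, 0.438 and 0.36, without overlap (log2 fold change -0.35, limma adjusted p = 0.108, or 0.0331 without trend and robust prior). SLC2A13, a proton-coupled myo-inositol carrier, had means of 0.674 ± 0.0459 and 0.625 ± 0.0425 RPKM, with overlap. SLC2A12 (GLUT12) had means of 0.434 and 0.368 RPKM, and exons of TBPL1 cover 38.9% of its exon bases from the other strand, so that its reads are uncertain. The urate carrier SLC2A9 stood at 0.127 and 0.145 RPKM on average and the fructose carrier SLC2A5 at 0.113 and 0.0823.

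Summed over all 37 carriers in deposited RPKM, the level was 72.0, 74.7 and 73.8 in the vector libraries and 70.6, 71.3 and 71.2 in the circAASS libraries. The scaling factors used in the test were 1.018 to 1.036 for the vector libraries and 0.958 to 0.996 for the circAASS libraries. Division by them ends the separation of this total, so it is not to be read as a fall. SLC16A1 made up 44.1%, 44.0% and 43.9% of that sum in the vector libraries and 51.0%, 52.9% and 51.1% in the circAASS libraries. The SLC16 sum went from 43.3, 44.9 and 45.0 RPKM to 46.1, 48.0 and 46.7. The SLC2 sum went from 22.0, 22.4 and 21.8 RPKM to 19.9, 18.8 and 20.4. In deposited RPKM the sum of the SLC16 genes was thus higher in the circAASS libraries and those of the SLC2 and SLC5 genes lower. The groups of these family sums did not overlap, though the same division narrows the gap of the SLC2 sum. None of the sums was tested.

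Genes that act with these carriers were read from the same fit. Of 46 tested genes in 4 lists, 13 rose, 9 fell and 24 did not pass, and the median log2 fold change was 0.08, beside -0.01 for all tested genes. Of all tested genes 16% rose and 16.3% fell, 32.3% in either direction, which is the share to set beside the count of each list below. Of the proteins that escort MCTs to the membrane, BSG (basigin, partner of MCT1 and MCT4) was abundant and did not pass, at 66.5 ± 1.31 and 65.3 ± 5.15 RPKM. EMB (embigin, a partner of MCT2) fell from 0.750, 0.768 and 0.856 RPKM to 0.341, 0.458 and 0.377 (log2 fold change -0.80, SE 0.15, limma adjusted p = 0.00662). NPTN (neuroplastin), of the same family, rose from 6.75, 6.44 and 6.92 RPKM to 7.42, 9.46 and 8.69 (log2 fold change 0.41, SE 0.09, adjusted p = 0.0109).

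Of 17 tested regulators of sugar uptake 6 rose, 5 fell and 6 did not pass. The arrestin TXNIP, which lowers glucose uptake by taking GLUT1 off the surface, fell from 8.85, 10.6 and 10.5 RPKM to 3.90, 3.77 and 4.19 (log2 fold change -1.24, SE 0.08, limma adjusted p = 0.000168). Its relative ARRDC4 fell from 0.875 ± 0.0704 to 0.518 ± 0.0446 RPKM (adjusted p = 0.0124). The 5 that fell were these, PDZK1, PDZK1IP1 and the kinase SGK1, which went from 3.68 to 2.89 RPKM (adjusted p = 0.0488). SGK1, too, passed on leaving out circAASS library 2 but no other single library (adjusted p up to 0.124). HIF1A, the oxygen-regulated subunit of the hypoxia-inducible factor, rose from 76.2 ± 4.28 to 111 ± 11.2 RPKM (log2 fold change 0.62, SE 0.08, adjusted p = 0.00141).

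Of 17 tested genes that handle sugars and pyruvate after uptake, 5 rose, 2 fell and 10 did not pass. Those that rose were the aldose reductase AKR1B1 (log2 fold change 1.86), the hexokinases HK1 (17.8 ± 0.420 to 26.1 ± 0.988 RPKM, 0.62) and HKDC1 (58.3 to 64.1 RPKM, 0.21), the lactate dehydrogenase chain LDHB (207 to 238 RPKM, 0.27) and the pyruvate carrier subunit MPC2 (13.2 to 14.7 RPKM, 0.23). The largest limma adjusted p of the 5 was 0.0103. Another gene covers 33.4% of the exon bases of LDHB, and DCAF6 covers 22.5% of those of MPC2 from the other strand, so that both are uncertain. The 2 that fell were PDK1 (0.799 to 0.397 RPKM, -0.79) and PDK3 (1.95 to 1.19 RPKM, -0.60), kinases that hold back pyruvate dehydrogenase. Of 9 tested sugar transporters of other families, SLC45A3 rose from 1.14 ± 0.204 to 1.93 ± 0.257 RPKM (adjusted p = 0.00862), SLC37A1 fell from 0.771 ± 0.0905 to 0.434 ± 0.0644 (adjusted p = 0.0189) and 7 did not pass. Leaving out vector library 3, circAASS library 2 or circAASS library 3 ended the call of SLC37A1 (adjusted p up to 0.0685).

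**Figure D5:**
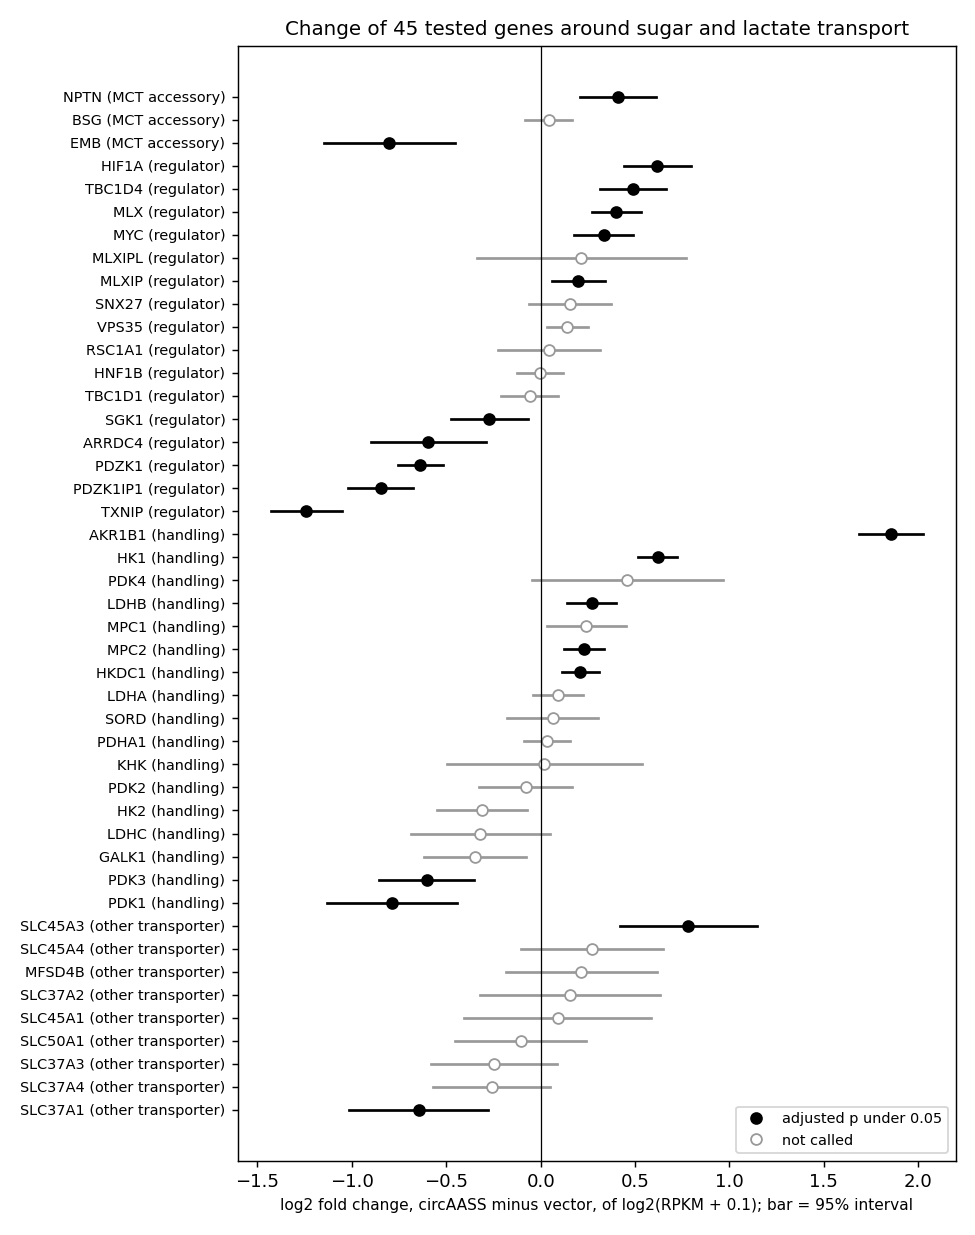
Log2 fold change of 45 of the tested genes of the 4 related lists, circAASS plasmid minus empty vector, with 95% intervals, grouped by list; filled black points passed the test. AKR1B1 lies farthest to the right at 1.86 and TXNIP farthest to the left at -1.24.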

How the data were processed

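The RNA of 6 HK-2 samples was sequenced as a stranded mRNA library, per the labels' protocols. The deposited values were RPKM, made by the authors; the submitters' processing notes name Trimmomatic 0.36, featureCounts, Subread 1.5.1, edgeR 3.12.1 and GRCh38. For the aligner, the annotation and the use of strand: not given in the sources used here. Whole reads were worked out with GENCODE 29 exon lengths: values were whole within 0.02 reads for 22385 of 24697 genes (90.6%), and other lengths, that of SLC2A1 included, were searched. RPKM were scaled with trimmed-mean factors (0.958 to 1.036) from these reads. A gene was tested if 3 libraries or more reached the RPKM-equivalent of 10 reads in a median-sized library and its reads summed to 15; 28 names turned into dates were left out. On log2(RPKM + 0.1), tests were made in limma 3.58.1 (R 4.3.3), trend and robust prior on, two-sided, Benjamini-Hochberg adjusted, threshold 0.05; it was tested on simulated data. Means ± SD are of deposited RPKM. Fold changes understate low genes. Carriers are accounted for one by one, those called and the 5 most abundant by library. Of each related list up to 4 called genes with the smallest p are named, and any where a count is 5 or fewer. A few values that enter the totals are not reported here. Members and lists were chosen with earlier results of these data known. Python 3.11.15 with numpy 2.4.6, pandas 2.3.3 and matplotlib 3.10.9 was used.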

Additional observations from a re-analysis of the deposited data

How the results depend on the processing

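Of the 10 called carriers, 10 kept their call with 1 RPKM added, with library size alone, with upper-quartile scaling, without trend and robust prior and with limma-voom on the recovered reads. With 0.01 RPKM added, without a filter and with the replicate block 9 kept it, SLC2A10 being lost (adjusted p = 0.0506, 0.117 and 0.0621). With the replicate block 3 carriers rose and 6 fell, and over all genes 2730 rose and 2698 fell; same-numbered libraries did not deviate together (correlations of -0.01, -0.02 and 0.02), and the block changed no other call of a carrier. With a mean of at least 1 RPKM only 10 carriers were tested, of which 3 rose and 3 fell. Leaving out 1 library gave 3 carriers higher each time and 6 to 7 lower, 11 to 12 related genes higher and 7 to 9 lower, and over all genes 2094 to 2791 higher and 2039 to 2883 lower, the fewest without vector library 2. Library size alone gave 2159 genes higher and 4023 lower, against 3091 and 3152, and added SLC2A1 and SLC5A6 to the carriers that fell. SLC2A4 (higher) and SLC2A8 (lower) were gained without trend and robust prior, SLC5A6 (lower) with limma-voom and without circAASS library 1, and SLC16A6 (lower) without vector library 2. Among the carriers reported, signs turned in uncalled ones only. SLC16A12 was -0.012 with library size alone. On leaving out 1 library in turn the log2 fold change ranged from -0.068 to 0.19 for SLC16A12, from -0.079 to 0.0076 for SLC2A13, from -0.030 to 0.32 for SLC2A9 and from -0.32 to 0.044 for SLC2A12. The cause was not tested. Depth limits what can be said of the 11 untested carriers, which had at most 19 reads in a library.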
